A study of Mus musculus with 9 samples.

Results

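Iron uptake, storage and recycling were followed here through 8 genes, Tfrc, Steap3, Slc11a2, Slc11a1, Fth1, Slc40a1, Hmox1 and Ireb2, of the 16535 genes that could be named on the arrays. The 8 genes were chosen by name, and each of their 10 probes was taken (Slc11a2 and Ireb2 have 2 probes each, the other genes 1). FDCPmix, a line of multipotent blood progenitors from the mouse, is kept in IL-3, in which it self-renews. It was transduced with a GFP-marked lentivirus carrying a short hairpin RNA (shRNA, which reduces the transcript it matches) to Gata2 or to Pu.1, or carrying no hairpin (empty vector, EV). Viable GFP-positive cells were sorted on day 5 and 150 ng of total RNA per sample was hybridized to single-color Agilent arrays, 3 arrays each for EV, Gata2 knockdown (KD) and Pu.1 KD. All 3 groups therefore share the cell line, the virus and the sort, and as a single line in culture they are a model of progenitors rather than of any one tissue.

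Cells take up iron bound to transferrin through transferrin receptor 1, reduce it in the endosome with STEAP3 and move it to the cytosol with the transporter DMT1, while iron that is not used is stored in ferritin. Macrophages recycle iron from engulfed red cells. They break down heme with heme oxygenase 1, move metal out of the phagosome with NRAMP1 and release iron through ferroportin. Iron regulatory proteins bind iron-responsive elements in several of these messenger RNAs. They stabilize that of the transferrin receptor and block the translation of that of ferritin, and a block of translation is not read by an expression array.

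A level is the log2 intensity of a probe minus the 75th percentile of its array, so a level above 0 lies above that percentile, and a difference of 1 is a 2-fold change. All 10 probes read well above background on all 9 arrays. A gene was called when its adjusted p in limma, corrected over 36585 probes, was under 0.05. Across arrays 80.4% to 89.6% of spots read well above background and 0 spots were saturated. The study states that samples were transduced in triplicate, but the labels do not say whether the 3 samples of a group were separate cultures. Each p therefore measures the spread between these samples, which may be technical. The 9 arrays lay on 3 slides, each with 1 array of each group, and changes within each slide are given where a result turns on them. EV replicate 3 stood apart, as its values correlated with those of the remaining arrays at 0.960 on average, against at least 0.971 for any other array, and with 1237 probes more than 2 log2 units above the mean of the other arrays against 307 at most elsewhere. The targeted genes went with the labels. Gata2 differed between Gata2 KD and EV by -1.61 (adjusted p 0.00414), and Spi1, the gene of PU.1, between Pu.1 KD and EV by -1.73 (adjusted p 0.00178).

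In Gata2 KD 3 of the 8 genes were called against EV. Slc11a1 rose 5.76-fold and Slc40a1 2.32-fold, and the brighter probe of Slc11a2 fell to 0.623 of its EV level. In Pu.1 KD 1 gene was called, Fth1, which fell to 0.45 of its EV level. Compared directly, the knockdowns differed at 4 of the 8, with Slc11a1, Slc40a1 and Fth1 higher and Slc11a2 lower in Gata2 KD. Tfrc, Steap3, Hmox1 and Ireb2 were not called in any of the 3 comparisons. Among all 15808 genes tested, 7.15% were called in Gata2 KD against EV, 3.61% in Pu.1 KD against EV and 12.4% between the knockdowns. These fits have no term for slide. With slide as a block Tfrc was called lower in Gata2 KD against EV (adjusted p 0.0332) and against Pu.1 KD (0.0163).

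**Figure D1:**
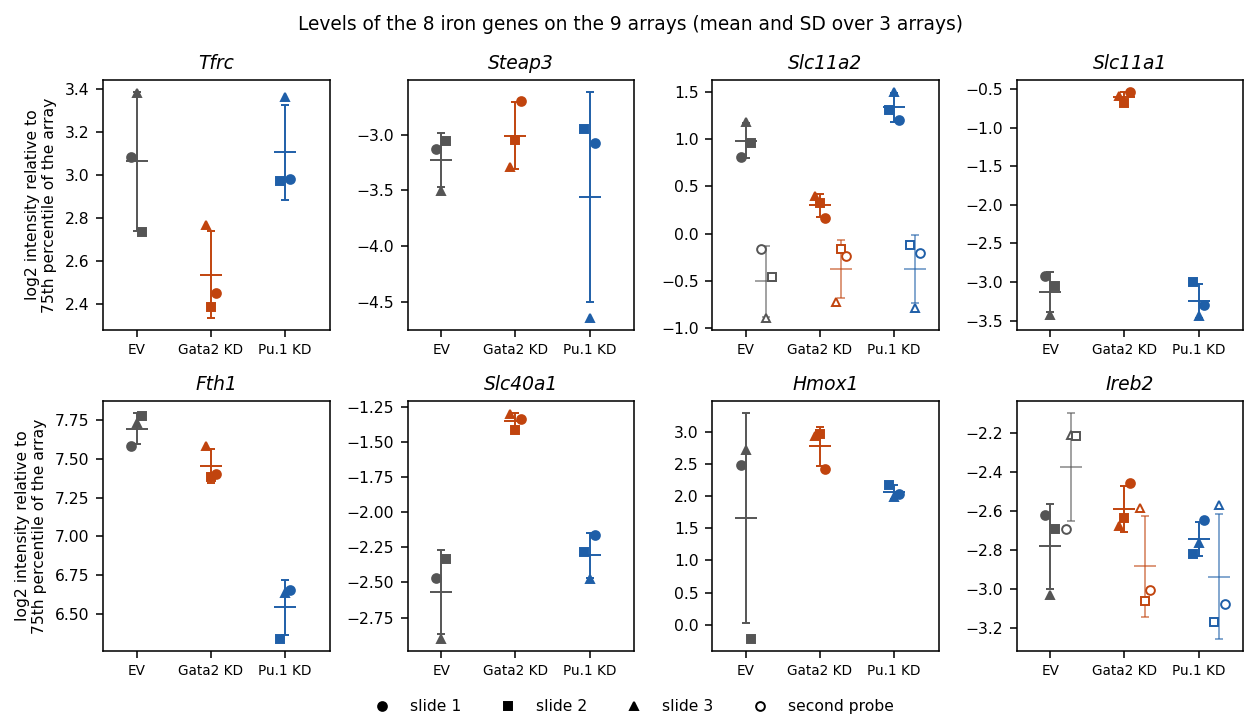
Level of each of the 8 genes (y axis, log2 intensity minus the array's 75th percentile) in EV, Gata2 KD and Pu.1 KD. Points are single arrays with the slide as the symbol, bars are mean and SD over 3 arrays, and open points are the second probe of Slc11a2 and Ireb2; Slc11a1 and Slc40a1 stand apart in Gata2 KD, Fth1 in Pu.1 KD, and EV replicate 3 lies far below the other EV arrays for Hmox1.

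Tfrc encodes transferrin receptor 1, the main entry route for iron in dividing and hemoglobin-making cells. Its probe, printed in 10 spots on each array, read 3.08, 3.38 and 2.73 in EV, 2.77, 2.39 and 2.45 in Gata2 KD, and 2.97, 3.36 and 2.98 in Pu.1 KD. The lowest EV array lay just below the highest Gata2 KD array, whereas the Gata2 KD and Pu.1 KD arrays did not overlap. The difference between Gata2 KD and EV was -0.53 with an SE of 0.21 and a 95% interval from -1.01 to -0.05, which was not called over all probes (adjusted p 0.276). It was negative on each of the 3 slides, from -0.63 to -0.35, and with slide as a block it was called (adjusted p 0.0332). Gata2 KD against Pu.1 KD gave -0.57 (adjusted p 0.165), from -0.59 to -0.53 within slides, and this difference too was called with slide as a block (adjusted p 0.0163) and in the deposited log2 values (0.0404). Pu.1 KD and EV differed by 0.04 with an interval from -0.44 to 0.52. In order of level Gata2 KD was lowest, and EV and Pu.1 KD did not differ beyond their spread.

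The promoter table of RefSeq (mouse build GRCm38.p6) held 10 start sites for 5 of the 8 genes, Tfrc, Steap3, Slc11a1, Fth1 and Ireb2. Each window, from 250 bases before to 50 bases after the start, was searched on both strands for the GATA motif, spelled AGATAAG, for the motif of the ETS family to which PU.1 belongs, spelled GGAAGTG, and for the core of the antioxidant response element, spelled TGACNNNGC. The loop of the iron-responsive element, spelled CAGTGN, was searched on the gene strand. Such elements lie in messenger RNA, whereas 250 bases of each window lie before the start and only 50 after it. The search therefore cannot show whether a transcript holds or lacks such an element. The motifs do not contain one another. Of the 10 windows 0 held the GATA motif or the antioxidant core. The ETS motif lay in 3 windows, 2 of them the overlapping windows of the Tfrc starts, which share a single match, and the other at positions -228 to -222 of the third Steap3 start. The loop letters lay in 4 windows, those of 3 Steap3 starts and that of Slc11a1. Of all 32851 promoters listed, 11% held the ETS motif, 3.04% the GATA motif, 12.4% the antioxidant core and 34.6% the loop letters, so a match describes these letters and nothing more. The Tfrc match is printed with the ETS motif in capitals, because Tfrc is an uptake gene whose knockdown difference was called in some fits only. It lies on the plus strand at chr16:32608893-32608922, just after the first start.
Tfrc: tacgtgcggaaGGAAGTGacgtagatccag

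Steap3 encodes the endosomal ferrireductase of the transferrin cycle. Its levels were -3.13, -3.51 and -3.06 in EV, -3.29, -3.05 and -2.69 in Gata2 KD, and -2.95, -4.65 and -3.08 in Pu.1 KD, where replicate 2 lay far below the rest. The groups overlapped in all comparisons. The change was 0.22 in Gata2 KD (95% interval -0.76 to 1.19, adjusted p 0.96) and -0.33 in Pu.1 KD (interval -1.30 to 0.65, adjusted p 0.945). The latter became 0.22 when Pu.1 KD replicate 2 was left out. Neither interval leaves a direction settled.

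Slc11a2 encodes DMT1, which carries ferrous iron out of the endosome and across the cell surface. The brighter of its probes read 0.81, 1.18 and 0.96 in EV, 0.40, 0.33 and 0.17 in Gata2 KD, and 1.31, 1.50 and 1.20 in Pu.1 KD. The 3 groups did not overlap in any pair, with Gata2 KD lowest and Pu.1 KD highest. In Gata2 KD it fell by 0.68 (SE 0.15, adjusted p 0.0409), from -0.78 to -0.63 within slides. This call was lost under 13 of 21 alternatives, among them each of the 9 fits without 1 array (adjusted p 0.0554 to 0.16) and scaling to the median (0.386), while the change itself stayed between -0.77 and -0.59. In Pu.1 KD the difference was 0.35 with an interval from 0.00 to 0.71, which was not called (adjusted p 0.401), although it was 0.32 to 0.38 on the 3 slides. The direct comparison gave -1.04 (SE 0.15, adjusted p 0.00318) and stayed past the threshold in all 21 alternatives. The second probe did not show these differences. It read -0.16, -0.90 and -0.46 in EV, -0.73, -0.16 and -0.24 in Gata2 KD, and -0.12, -0.79 and -0.21 in Pu.1 KD, and its changes were 0.13 (adjusted p 0.963) in Gata2 KD, 0.13 (adjusted p 0.989) in Pu.1 KD and -0.00 between the knockdowns, with an interval from -0.61 to 0.61 for the last. Slc11a2 transcripts are known to differ at both ends, and which of them each probe reads was not tested.

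Slc11a1 encodes NRAMP1, the metal transporter of the phagosome membrane in macrophages and neutrophils. It had the largest change of the 8 genes. Its levels were -2.92, -3.42 and -3.05 in EV, -0.59, -0.69 and -0.54 in Gata2 KD, and -3.01, -3.44 and -3.30 in Pu.1 KD. Every Gata2 KD array lay above every other array, and EV and Pu.1 KD overlapped. The rise in Gata2 KD was 2.53 (SE 0.18, 95% interval 2.12 to 2.93, adjusted p 9.79e-05), between 2.36 and 2.83 within slides. Over 21 alternatives it lay between 1.82 and 2.64 and was called in each. In Pu.1 KD the difference was -0.12 with an interval from -0.53 to 0.29 (adjusted p 0.964), and the knockdowns differed by 2.64 (adjusted p 3.85e-05). In bulk RNA of sorted cells a change in the number of cells of a type and a change of RNA per cell cannot be told apart.

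The 250 bases before the Slc11a1 start, at chr1:74374953-74375202 on the plus strand, are shown because this gene moved most in Gata2 KD, with the match of the loop letters in capitals at positions -40 to -35. These letters lie before the start, so they are not part of a transcript from it. The GATA and ETS motifs were not found in this window.
Slc11a1: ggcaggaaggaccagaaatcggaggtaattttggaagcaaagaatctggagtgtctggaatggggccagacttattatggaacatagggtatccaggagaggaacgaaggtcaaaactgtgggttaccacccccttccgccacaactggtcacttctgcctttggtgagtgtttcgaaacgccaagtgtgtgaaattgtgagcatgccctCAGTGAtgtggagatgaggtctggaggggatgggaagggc

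Fth1 encodes the ferritin heavy chain, which oxidizes iron for storage. Its levels were 7.58, 7.73 and 7.78 in EV, 7.58, 7.38 and 7.40 in Gata2 KD, and 6.34, 6.64 and 6.65 in Pu.1 KD. All Pu.1 KD arrays lay below all others, while EV and Gata2 KD overlapped at 7.58. In Pu.1 KD Fth1 fell by 1.15 (SE 0.14, 95% interval -1.48 to -0.82, adjusted p 0.00664), with -1.44 to -0.93 within slides. The call held in 18 of 21 alternatives and was lost with scaling to the median (adjusted p 0.059), in the fit of EV and Pu.1 KD alone (0.051) and with the replicate number as a block (0.0508). In Gata2 KD the difference was -0.24 with an interval from -0.57 to 0.09 (adjusted p 0.578), and the direct difference between the knockdowns was 0.91 (adjusted p 0.00452). Fth1 has near-identical processed copies in the mouse genome, and whether the probe also reads them was not tested. Ftl1, which encodes the light chain of the same ferritin shell, differed from EV by 0.28 in Pu.1 KD (adjusted p 0.461) and by 0.43 in Gata2 KD (adjusted p 0.135), so neither change was called.

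The 250 bases before the second of the 2 Fth1 starts in the table, at chr19:9982396-9982645 on the plus strand, are shown as the promoter of the gene called in Pu.1 KD. None of the 4 motifs was found in this window, so no letter is in capitals.
Fth1: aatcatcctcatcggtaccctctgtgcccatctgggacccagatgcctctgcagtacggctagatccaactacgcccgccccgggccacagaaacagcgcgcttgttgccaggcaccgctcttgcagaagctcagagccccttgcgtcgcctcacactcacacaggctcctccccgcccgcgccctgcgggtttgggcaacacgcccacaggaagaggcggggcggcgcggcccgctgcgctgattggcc

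Slc40a1 encodes ferroportin, the iron exporter. It read -2.47, -2.91 and -2.33 in EV, -1.30, -1.42 and -1.34 in Gata2 KD, and -2.29, -2.47 and -2.16 in Pu.1 KD. The Gata2 KD arrays lay above all others and agreed closely among themselves, while EV and Pu.1 KD overlapped. The rise in Gata2 KD was 1.22 (SE 0.18, 95% interval 0.81 to 1.62, adjusted p 0.00495), from 0.91 to 1.60 within slides, and it was called in all 21 alternatives. In Pu.1 KD the difference was 0.26 with an interval from -0.14 to 0.66 (adjusted p 0.724). Between the knockdowns Slc40a1 differed by 0.96 (adjusted p 0.00994), again called in all 21 alternatives.

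Hmox1 encodes heme oxygenase 1, which opens the heme ring and frees its iron. Its levels were 2.49, 2.72 and -0.23 in EV, 2.93, 2.96 and 2.42 in Gata2 KD, and 2.18, 1.98 and 2.03 in Pu.1 KD. EV replicate 3 set the EV spread (SD 1.64), since its processed intensity was 416.4 against 3293 and 3241 in the other EV arrays. With all arrays the differences from EV were 1.11 in Gata2 KD (interval -0.44 to 2.67, adjusted p 0.589) and 0.41 in Pu.1 KD (interval -1.15 to 1.96, adjusted p 0.975). Without EV replicate 3 they were 0.17 (adjusted p 0.956) and -0.54 (adjusted p 0.353). The Gata2 KD and Pu.1 KD arrays did not overlap, and the difference between them was 0.71, from 0.39 to 0.95 within slides, with an adjusted p of 0.836 in the fit of 9 arrays and of 0.0503 without EV replicate 3, which enters that test through the shared spread alone. The level of Hmox1 in EV, and with it both changes against EV, is therefore poorly determined.

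Ireb2 encodes iron regulatory protein 2, which binds iron-responsive elements when iron is scarce and is degraded when iron is plentiful. The probe with the higher mean level read -2.62, -3.03 and -2.69 in EV, -2.68, -2.63 and -2.46 in Gata2 KD, and -2.82, -2.77 and -2.65 in Pu.1 KD, and all groups overlapped. Its changes were 0.19 in Gata2 KD (95% interval -0.16 to 0.54, adjusted p 0.754) and 0.04 in Pu.1 KD (interval -0.31 to 0.39). The second probe read -2.69, -2.21 and -2.22 in EV, -2.59, -3.06 and -3.00 in Gata2 KD, and -3.17, -2.57 and -3.08 in Pu.1 KD. It was lower in both knockdowns on all 3 slides, by -0.51 (interval -1.03 to 0.01, adjusted p 0.361) and -0.56 (interval -1.09 to -0.04, adjusted p 0.346), and was not called either. The probes of Ireb2 thus differed in the sign of their change against EV, and neither gave a change past the threshold.

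**Figure D2:**
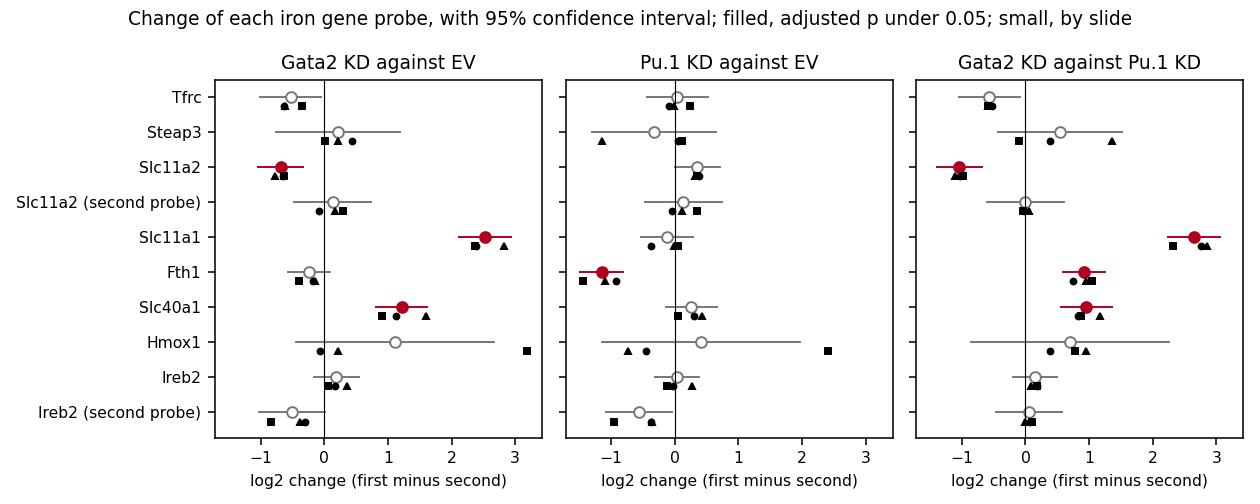
Log2 change of each probe of the 8 genes (x axis, first group minus second) in the 3 comparisons. Large points carry the 95% confidence interval and are filled where the adjusted p was under 0.05, and small symbols are the differences within slides 1 (circle), 2 (square) and 3 (triangle); 3 probes are filled in Gata2 KD against EV, 1 in Pu.1 KD against EV and 4 between the knockdowns.

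Counted together, 5 of the 8 genes had a higher mean in Gata2 KD than in EV, and 2 were called higher and 1 lower, where 4.21% of all genes were called higher and 2.95% lower. The median change was 0.21, beside -0.09 over all genes. The arrays did not overlap for 3 of the 8, against 23.1% of all genes. In Pu.1 KD 0 were called higher and 1 lower, where 1.45% and 2.16% of all genes were called. The median change of 0.04 stood beside -0.04 over all genes, and 2 of the 8, Fth1 and Slc11a2, did not overlap with EV, against 20.6%. Between the knockdowns 3 were called higher and 1 lower in Gata2 KD, beside 6.77% and 5.6% of all genes, and 6 of the 8 did not overlap, beside 30.1%. The median of the direct differences was 0.63, beside -0.03. These comparisons share arrays, so their counts are not separate evidence. EV replicate 3 did not decide the calls of Slc11a1, Slc40a1 or Fth1. Without it Slc11a1 rose by 2.57 (adjusted p 0.000453) and Slc40a1 by 1.34 (adjusted p 0.00573) in Gata2 KD, and Fth1 fell by 1.11 (adjusted p 0.0216) in Pu.1 KD, whereas the change of Slc11a2 in Gata2 KD was -0.70 and was not called (adjusted p 0.0869).

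A wider list of 48 iron genes, sorted by role, was set beside the 8. Of these, 43 were tested. The others had no named probe or were too dim. In Gata2 KD 5 were called higher (11.6%) and 2 lower (4.65%), beside 4.21% and 2.95% of all genes, with a median change of -0.11 beside -0.09. The called genes lay in the roles of uptake, heme transport and export. None of the 5 storage, 3 heme breakdown, 9 regulatory and 7 mitochondrial genes tested was called in Gata2 KD, with changes from -0.55 to 0.70, but 4 of them were called under some alternatives. With slide as a block Bach1, a heme-binding repressor whose targets include Hmox1, was called at 0.70 (adjusted p 0.0472, from 0.0583 without the block) and Fbxl5 at 0.49 (adjusted p 0.0417, from 0.0744). The other probes of Fbxl5 gave 0.005 (adjusted p 0.999) and 0.17 (adjusted p 0.913) without the block. Bach1 was called under 6 of 21 alternatives, and Fbxl5, Ftl1 and Glrx5 under 2 each. In Pu.1 KD 2 of 43 (4.65%) were called, 1 higher and 1 lower, which is near the 3.61% of all genes, and the median was -0.05.

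Hp encodes haptoglobin, which captures free hemoglobin and is stored in neutrophil granules. It read 1.35, 1.35 and 0.85 in EV, 6.36, 6.25 and 6.27 in Gata2 KD, and 1.42, 1.41 and 1.42 in Pu.1 KD. Its rise of 5.11 in Gata2 KD (adjusted p 3.49e-06) was the largest of the list, and the change of 0.23 in Pu.1 KD was not called (adjusted p 0.739). Lcn2 encodes lipocalin 2, which binds iron-loaded siderophores and is another neutrophil granule protein. It read -1.67, -1.65 and -1.81 in EV, 2.89, 2.50 and 2.42 in Gata2 KD, and -2.62, -2.53 and -2.72 in Pu.1 KD. No groups overlapped. Lcn2 rose by 4.32 in Gata2 KD (adjusted p 7.3e-06) and fell by 0.91 in Pu.1 KD (adjusted p 0.0223), the latter call being lost under 10 of 21 alternatives.

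Cp encodes ceruloplasmin, the ferroxidase that works beside ferroportin. It rose by 3.59 in Gata2 KD (adjusted p 9.36e-05), from levels of -2.67, -3.43 and -3.44 in EV to 0.54, 0.40 and 0.28, and in Pu.1 KD its change was 0.48 (adjusted p 0.535). Cp and Slc40a1, which act together in export, were thus both called higher in Gata2 KD. Hfe, whose product binds the transferrin receptors, rose by 2.02 (adjusted p 0.000356), from -1.97, -2.35 and -1.86 to -0.05, -0.16 and 0.08. Lrp1 encodes the receptor for heme bound to hemopexin, among other ligands, and rose by 1.26 (adjusted p 0.0238). That call was lost under 4 alternatives, 3 of them fits without a Gata2 KD array (adjusted p 0.0595 to 0.1) and the other the fit of the 2 groups alone (0.075).

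Tfr2 encodes transferrin receptor 2, which senses transferrin in liver and erythroid cells. It read 2.17, 2.56 and 2.38 in EV, 1.05, 0.88 and 0.81 in Gata2 KD, and 2.98, 3.21 and 2.88 in Pu.1 KD, with no overlap between any groups. It fell by 1.46 in Gata2 KD (adjusted p 0.00105), and its change of 0.65 in Pu.1 KD was not called (adjusted p 0.0839), although it was 0.59 to 0.71 on the 3 slides and was called under 5 of 21 alternatives, slide as a block among them (adjusted p 0.0144). Abcg2, an efflux pump that can carry heme and porphyrins, was called against EV in both knockdowns by the brighter of its 2 probes. This probe read -1.87, -1.47 and -1.43 in EV, -2.54, -2.66 and -2.75 in Gata2 KD, and -0.25, -0.11 and -0.36 in Pu.1 KD. The change was -1.07 in Gata2 KD (adjusted p 0.00604, and 0.0592 with scaling to the median) and 1.35 in Pu.1 KD (adjusted p 0.00551). The second probe had the same signs and was called in neither comparison, at -0.60 (adjusted p 0.0777) and 0.67 (adjusted p 0.0721). Tfr2, the brighter probe of Abcg2 and the brighter probe of Slc11a2 thus had the same order of levels, with Gata2 KD lowest, EV between and Pu.1 KD highest.

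Between the knockdowns 9 of the 43 genes were called, 6 higher (14%) and 3 lower (6.98%) in Gata2 KD, beside 6.77% and 5.6% of all genes, with a median of -0.03. Lcn2 (5.23), Hp (4.88), Cp (3.10), Hfe (2.22) and Lrp1 (1.17) were higher, and Abcg2 (-2.41) and Tfr2 (-2.11) lower. The remaining called genes were Fbxl5 and Slc48a1. Fbxl5 encodes the ubiquitin ligase subunit that marks iron regulatory proteins for degradation, and was higher by 0.68 (adjusted p 0.0113). Slc48a1 encodes a heme transporter of endosomes and lysosomes, and differed by -0.60 (adjusted p 0.0447). The call of Slc48a1 was lost under 11 and that of Fbxl5 under 5 of 21 alternatives. Their other probes were not called. Those of Fbxl5 gave 0.76 (adjusted p 0.516) and 0.02, and that of Slc48a1 gave -0.20 (adjusted p 0.771).

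**Figure D3:**
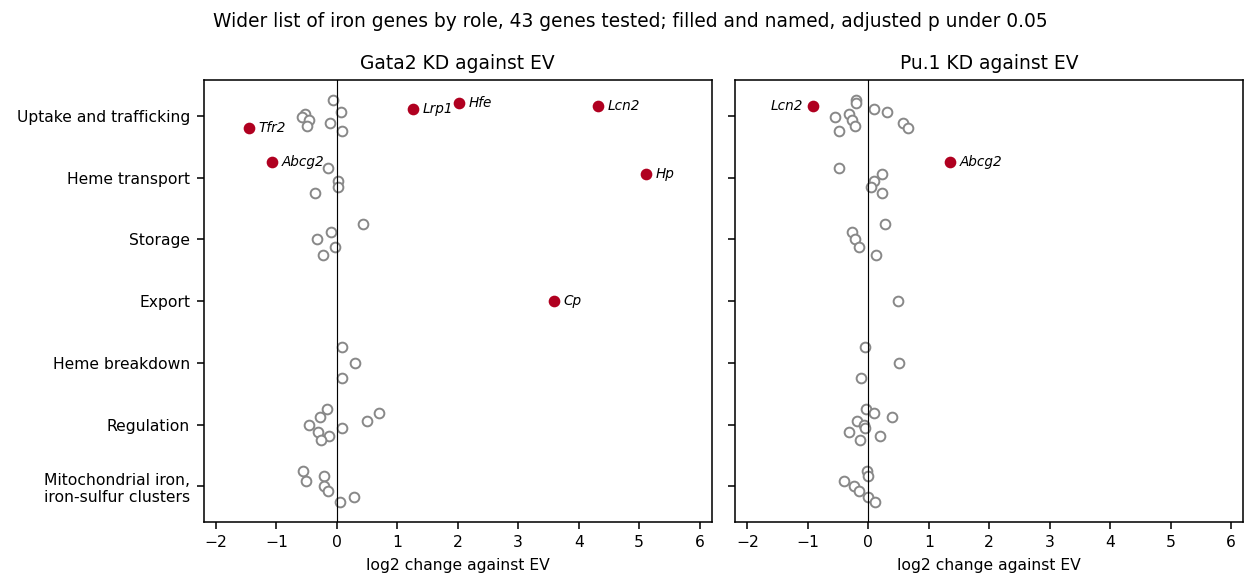
Log2 change against EV (x axis) of the 43 tested genes of the wider iron list by role (y axis), in Gata2 KD at left and Pu.1 KD at right. Each point is a gene, and filled, named points had an adjusted p under 0.05; the 5 called rises in Gata2 KD run from 1.26 to 5.11, and the 2 genes called in Pu.1 KD are Abcg2 and Lcn2.

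Markers of other blood cells moved with the same groups. Among all genes tested, 4.21% were called higher and 2.95% lower in Gata2 KD, and 1.45% and 2.16% in Pu.1 KD. Of the neutrophil list 10 genes were tested, and all 10 were called higher in Gata2 KD and 8 lower in Pu.1 KD. Its summed level, in units of the array's 75th percentile, was 117 to 132 in EV, 906 to 1043 in Gata2 KD and 20.5 to 27.1 in Pu.1 KD. Of the macrophage list 6 of 10 tested genes were called higher in Gata2 KD and 1 lower in Pu.1 KD, with sums of 4.89 to 5.95 in EV, 37.6 to 41.2 in Gata2 KD and 3.94 to 5.13 in Pu.1 KD. The macrophage marker Mrc1, 1 of these 6, was not well above background on any EV or Pu.1 KD array. It entered the test only through its 3 Gata2 KD arrays, so its call is not separate support. Marco, C1qa, C1qb and Vsig4 were not called in either knockdown. The mast cell and basophil list holds Gata2, the target of the hairpin. Of its other 9 genes 6 were called lower in Gata2 KD, where their sum was 24.3 to 26.4 beside 125 to 144 in EV and 89.7 to 97.8 in Pu.1 KD. The sums of Pu.1 KD thus also lay below those of EV. There Fcer1a (-0.70) and Hdc (-1.02) were called lower and Cma1 (1.49) higher. Of 9 erythroid genes tested, Klf1 and Epor were called lower in Gata2 KD and higher in Pu.1 KD, while the other 7 were not called in either. The sums were 130 to 195 in Gata2 KD, 220 to 310 in EV and 242 to 287 in Pu.1 KD, but 91.9% to 95.8% of each sum was Hbb-bt, whose change of -0.71 in Gata2 KD was not called (adjusted p 0.124). Without Hbb-bt the sums of Gata2 KD (10.6 to 14.5) and EV (12.2 to 13.0) overlapped. All 8 progenitor markers were well above background on all arrays. In Gata2 KD Kit (0.75) and Cd34 (2.17) were called higher and Csf2rb2 (-0.93), Meis1 (-1.28) and the targeted Gata2 lower, and in Pu.1 KD Kit (1.41) was called higher and Cd34 (-0.92) lower. The progenitor sums of both knockdowns overlapped with those of EV, but those of Gata2 KD (89.9 to 110) lay below those of Pu.1 KD (114 to 134). Without the targeted Gata2, the sums of Gata2 KD (81.9 to 97.8) and Pu.1 KD (91.0 to 105) overlapped. The cell cycle sums overlapped between all groups. The rises of Slc11a1, Slc40a1, Hp, Lcn2, Cp, Hfe and Lrp1 thus went with those of the neutrophil and macrophage lists in Gata2 KD. In Pu.1 KD, where the neutrophil list was lower, Lcn2 alone of these genes was called lower. The changes there of Slc11a1 (-0.12), Slc40a1 (0.26), Hp (0.23) and Cp (0.48) were not called. The part of cell composition in these results was not tested.

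**Figure D4:**
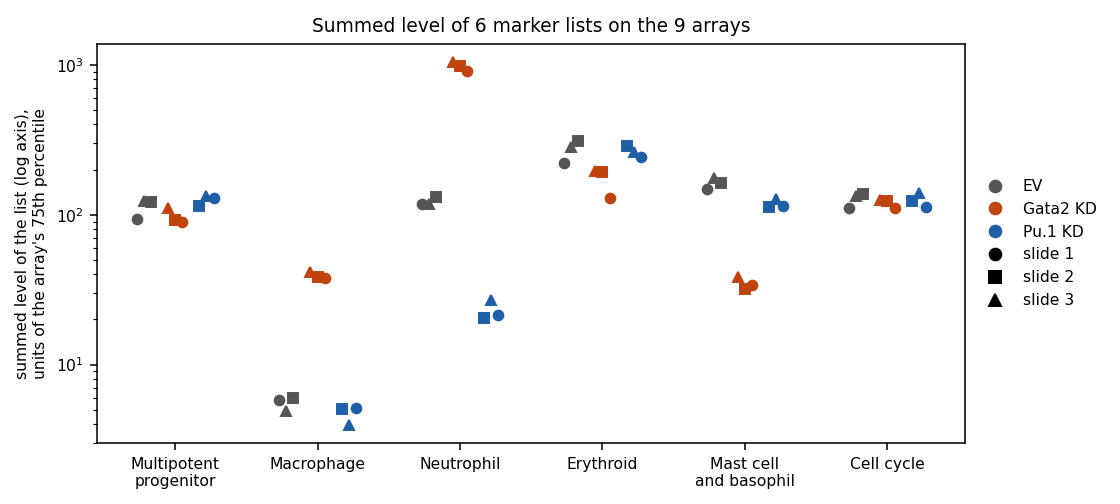
Summed level of 6 marker lists (log y axis, in units of the array's 75th percentile) on the 9 arrays, colored by group with the slide as the symbol; Gata2 is part of the progenitor and the mast cell and basophil sums. Neutrophil sums separate all 3 groups, macrophage sums are higher in the 3 Gata2 KD arrays, and cell cycle sums overlap. Mast cell and basophil sums are lowest in Gata2 KD, and those of Pu.1 KD lie below those of EV. Progenitor sums of Gata2 KD lie below those of Pu.1 KD, but the sums of these groups overlap when Gata2 is left out.

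Over the 9 arrays the levels of 7 of the genes were set beside those of 14464 other named genes well above background on all of them. These correlations are descriptions across arrays that share groups and slides. The profile most like that of Slc11a1 was that of 1600014C10Rik (Pearson r 0.998), followed by Clec4n (0.998), a lectin receptor of myeloid cells. For Slc40a1 they were Il17re (0.990) and Ggt5 (0.987), and for Fth1 Psma7 (0.994) and Chac1 (0.992). Slc11a2 was most like Inpp5a (0.990) and then Tfr2 (0.989), a gene of the wider iron list. Tfrc was nearest to Nanp (0.972) and Ssbp3 (0.965). For Ireb2 and Steap3 the highest values were 0.937 with Stap2 and 0.977 with Lpo, and that of Steap3 is open to its single low array.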

How the data were processed

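Total RNA from sorted FDCPmix cells was labeled and hybridized in 1 color to Agilent mouse arrays, 9 in all and 3 in each group, with groups and replicate numbers taken from the titles. For each array the authors deposited the intensity values of Agilent Feature Extraction 10.1.1.1 (per the submitters' processing notes), of which the processed signal is background-subtracted and not normalized between arrays. They also deposited a table of log2 values whose processing and centring are not stated in detail. Its column medians were 7.00 to 7.05 and it correlated at 0.997 or more with the log2 median signal, so it holds log2 signal in the same direction, and it was used as an alternative only.

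Here the processed signal was put on the log2 scale and the 75th percentile of each array, over 41174 probes, was subtracted. Control spots were dropped, outlier-flagged spots (47 to 96 per array) counted as missing, and replicate spots were averaged per probe. A probe was tested when well above background on at least 3 of 9 arrays and with 2 or more values in every group, which left 36585. The comparisons used limma 3.58.1 (R 4.3.3), with lmFit on all 9 arrays, group means and eBayes (two-sided, Benjamini-Hochberg over the probes tested, threshold 0.05), a script tested on simulated data. The number of arrays limits the precision. Accessions without versions were matched to RefSeq genes of GRCm38.p6, naming 23374 probes of 16535 genes. The array design is annotated to another build, so probes have no coordinates. A gene is represented by its probe of highest mean level, and other probes of the 8 genes are given beside it.

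The 8 genes, the wider list, the marker lists and the motifs were written from general knowledge, with earlier results of these data known. Every gene of the wider list called in a comparison is named. For likeness the 2 genes of highest correlation were taken, and that of Hmox1 is not reported here. Alternatives were a block for replicate number or for slide, normexp (offset 50, on the median signal because the files used hold no mean signal), the deposited log2 values, median scaling, quantile normalization, outlier spots kept, testing every probe, testing those well above background on all 9 arrays, trend and robust eBayes, the 2 groups alone, the probe of largest interquartile range and each array left out.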

Additional observations from a re-analysis of the deposited data

Results flagged for a closer look

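The knockdowns differed from each other at 4 of the 8 iron genes, by the direct test of Gata2 KD against Pu.1 KD. In that test 12.4% of all genes were called. The log2 difference was 2.64 for Slc11a1, -1.04 for the brighter probe of Slc11a2, 0.96 for Slc40a1 and 0.91 for Fth1. The second Slc11a2 probe gave -0.003 and was not called. The groups of these genes hold 3 arrays each, too few for a test of single outlying arrays.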

How the results depend on the processing

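Values under the alternatives were tallied for the 8 iron genes in every comparison. For wider-list genes, Gata2 and Spi1 only comparisons with a call were tallied, so these could not gain one. Of these values 882 kept the direction and the side of the threshold, 51 lost a call and 3 gained a call. The other 9 turned the direction of a change that was not called. Outside the tally, Bach1 was called under 6 alternatives in Gata2 KD against EV and under 5 between the knockdowns. Tfr2 was called under 5 in Pu.1 KD. Ftl1, Fbxl5 and Glrx5 were called under 2 each in Gata2 KD against EV, and Trf and Bmp6 under 1 each between the knockdowns. In Pu.1 KD the count of 1 called iron gene became 0 with the replicate block, with scaling to the median and with only the 2 groups compared. The count of 2 in the wider list became 1 in the same 3 fits, and it was 1 to 2 when 1 array was left out, being 1 without EV replicate 1 or 2, Gata2 KD replicate 2 or any Pu.1 KD array, since Lcn2 was lost. It became 3 with the slide block, quantile normalization, trend and robust eBayes and the deposited values, since Tfr2 was gained, and with normexp Tfr2 was gained and Lcn2 lost. In Gata2 KD the wider list gave 6 to 10 calls over the alternatives, under which 665 to 1617 of all genes tested were called. The replicate block also ended the calls of Slc11a2 in Gata2 KD (adjusted p 0.101) and, between the knockdowns, of Slc48a1 (0.139) and Fbxl5 (0.0608). Arrays of the same replicate number did not deviate together (correlations of deviations from -0.55 to 0.65), so the number was not taken to pair them. With this block the number of called genes over all genes fell from 1131 to 712 in Gata2 KD and from 570 to 146 in Pu.1 KD. With the slide block the number of called genes rose to 1617 and 1035. Arrays of a slide deviated together at 0.26 to 0.72, apart from EV replicate 3 and Gata2 KD replicate 2 (-0.04). The comparisons given above have no term for slide unless stated. With that block Tfrc was called in Gata2 KD against EV (adjusted p 0.0332) and against Pu.1 KD (0.0163). Changes that turned were all in comparisons against EV. Leaving out 1 array gave ranges in Pu.1 KD of -0.12 to 0.20 for Tfrc (lowest without EV replicate 3, and -0.086 without Pu.1 KD replicate 2), -0.54 to 0.93 for Hmox1, -0.0871 to 0.118 for Ireb2 and -0.63 to 0.22 for Steap3. Quantile normalization gave Slc11a1 0.0225 in Pu.1 KD. Taking the probe of largest interquartile range put the other Ireb2 probe in place, with -0.51 in Gata2 KD and -0.56 in Pu.1 KD. Steap3, both Ireb2 probes, the second Slc11a2 probe, Slc11a1 and Slc40a1 lay below the 75th percentile of every array. They therefore rest on less signal over background than Fth1 or Tfrc. In EV the processed intensity of Slc11a1 was 45.9 to 77.4, beside 43.3 to 67.3 for Steap3. The size of the Slc11a1 rise in Gata2 KD ran from 1.82 to 2.64 over the alternatives. The causes were not tested.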
